A study of Rattus norvegicus with 12 samples.

Results

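Immediate early genes are transcribed within minutes of a stimulus, before any new protein is made, and 10 of them were followed here across rat lungs exposed to cigarette smoke and endotoxin: Jun, Junb, Jund, Fos, Fosb, Atf3, Egr1, Ier2, Nr4a1 and Dusp1. A probe matched to the gene by its RefSeq transcript was found for 9 of the 10, among 14737 gene symbols with a probe on the array, and the array file held no such probe for Fosb. Each of the 9 genes was read by 1 probe, and each probe was well above background on all 12 arrays.

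The lungs came from male Sprague-Dawley rats, 8 to 12 weeks old, in 4 groups of 3 rats. CS+LPS rats breathed cigarette smoke (CS) up to day 30 and received lipopolysaccharide (LPS), a bacterial endotoxin, into the trachea on days 5 and 19. CS+LPS+NaHS rats also received sodium hydrosulfide, a donor of hydrogen sulfide, at 14 μmol/kg by intraperitoneal injection before each exposure. CS+LPS+PPG rats received propargylglycine, which blocks cystathionine gamma-lyase (CTH), an enzyme that forms hydrogen sulfide, by the same route. Control rats followed the same schedule with air or saline. All rats were anaesthetized with urethane 24 h after the last smoke exposure, went through a lung function test and were exsanguinated before the left upper lobe was taken for RNA. The time from death to freezing was not given in the sources used here. No group received NaHS or PPG without smoke and LPS, and the model is a 30-day exposure of young rats.

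The values are log2 signals of Agilent 1-colour arrays, scaled to the 75th percentile of each array, and a difference of 1 on this scale is a doubling. The number of arrays, 3 in each group, limits the precision. All 3 CS+LPS arrays and Control replicate 3 were hybridised on slide 2 and the other 8 arrays on slide 1, so that CS+LPS against either treated group cannot be told apart from slide 2 against slide 1. Control replicate 3 was the dimmest array, with a 75th percentile of 1229 against 2110 to 3261 on the others, and its correlation with the others was 0.936 to 0.957, below that of every other pair of arrays. Differences of the 9 genes from control that moved by more than 1.5 times when it was left out are given both ways. Lung epithelium markers were well above background on all arrays (7 of 7). Their summed signal lay between 1122750 and 1673010 in control and between 983447 and 1065560 in CS+LPS. It lay between 1020980 and 1051200 with NaHS and between 1042690 and 1309180 with PPG. In each exposed group 3 of the 7 were higher than control and 4 lower. The part of epithelial cells in the values of the 9 genes was not tested. Whole lung tissue was measured, so that fewer cells of a type and less RNA per cell cannot be told apart.

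AP-1 is a dimer of a Jun protein (Jun, Junb, Jund) with another Jun, a Fos protein or an ATF protein, and binds short elements in the promoters of genes for matrix enzymes, cytokines and cell growth. Mitogen-activated protein (MAP) kinases switch these genes on through serum response factor, which binds CArG boxes, and through CREB and ATF proteins, which bind the cAMP response element. Most of the transcripts are short-lived, so their level follows recent signalling, and Dusp1, a phosphatase that removes phosphate from MAP kinases, is itself an immediate early gene that ends the signal.

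Promoter windows from 250 bases before to 50 bases after the transcription start were taken from RefSeq (build GRCr8) and held an entry for 7 of the 10 genes, not for Jun, Fos or Atf3. The cAMP response element TGACGTCA was present in 3 of these 7 windows, Jund, Ier2 and Dusp1, and in 1.83% of 33469 rat promoters. The 3 windows are printed below from 5′ to 3′ because the same 8 letters stand in 3 of the measured genes. Capitals mark the element and, in Jund, a GCGTGGGCG site for EGR factors. The windows lie at chr16:18769722-18770021, minus strand (Jund), chr19:40399123-40399422, plus strand (Ier2) and chr10:17184603-17184902, plus strand (Dusp1).
Jund: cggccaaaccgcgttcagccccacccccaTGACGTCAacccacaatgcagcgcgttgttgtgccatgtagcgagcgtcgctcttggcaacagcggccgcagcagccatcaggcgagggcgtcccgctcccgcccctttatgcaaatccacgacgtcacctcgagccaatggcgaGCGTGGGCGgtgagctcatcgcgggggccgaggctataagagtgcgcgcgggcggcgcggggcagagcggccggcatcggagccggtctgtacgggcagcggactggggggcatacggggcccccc
Ier2: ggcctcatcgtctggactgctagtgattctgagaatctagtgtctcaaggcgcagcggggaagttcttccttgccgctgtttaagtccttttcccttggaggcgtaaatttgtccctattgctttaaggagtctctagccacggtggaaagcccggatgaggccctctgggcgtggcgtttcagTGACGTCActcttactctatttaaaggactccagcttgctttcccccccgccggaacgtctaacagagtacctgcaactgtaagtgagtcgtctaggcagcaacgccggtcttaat
Dusp1: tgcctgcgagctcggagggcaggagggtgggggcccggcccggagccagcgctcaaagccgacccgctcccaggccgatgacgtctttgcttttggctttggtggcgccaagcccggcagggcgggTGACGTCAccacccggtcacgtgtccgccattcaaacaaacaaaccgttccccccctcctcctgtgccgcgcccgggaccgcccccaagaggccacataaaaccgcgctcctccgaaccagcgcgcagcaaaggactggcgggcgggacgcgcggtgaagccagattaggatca
The element began 221 bases before the start in Jund, 66 before it in Ier2 and 124 before it in Dusp1. The EGR site was present in 1 of 7 windows, that of Jund, and in 0.544% of all promoters. The CArG box was found at 2 places in the Egr1 window, from -105 to -96 and from -83 to -74, in none of the other 6 windows, and in 1.64% of all promoters. The AP-1 element TGAGTCA was in 0 of the 7 windows and in 4.63% of all promoters. Both strands were searched, the motifs did not overlap, and a match is only a match of letters.

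Most of the 9 measured genes had a lower mean in each exposed group than in control lung. Only Jun in CS+LPS was called at an adjusted p under 0.05, where 2.02% of all probes were. The genes were chosen with earlier results of these data known. The control mean was the highest of the 4 group means for 8 of the 9 genes, the exception being Dusp1, whose CS+LPS and control means were within 0.01. The share of all probes with the control mean highest was not counted. Among the 27 pairs of groups that neighbour each other in the order of a gene's 4 means, none differed at an adjusted p under 0.05 (lowest adjusted p = 0.172, limma), and 4 had an unadjusted p under 0.05.

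**Figure D1:**
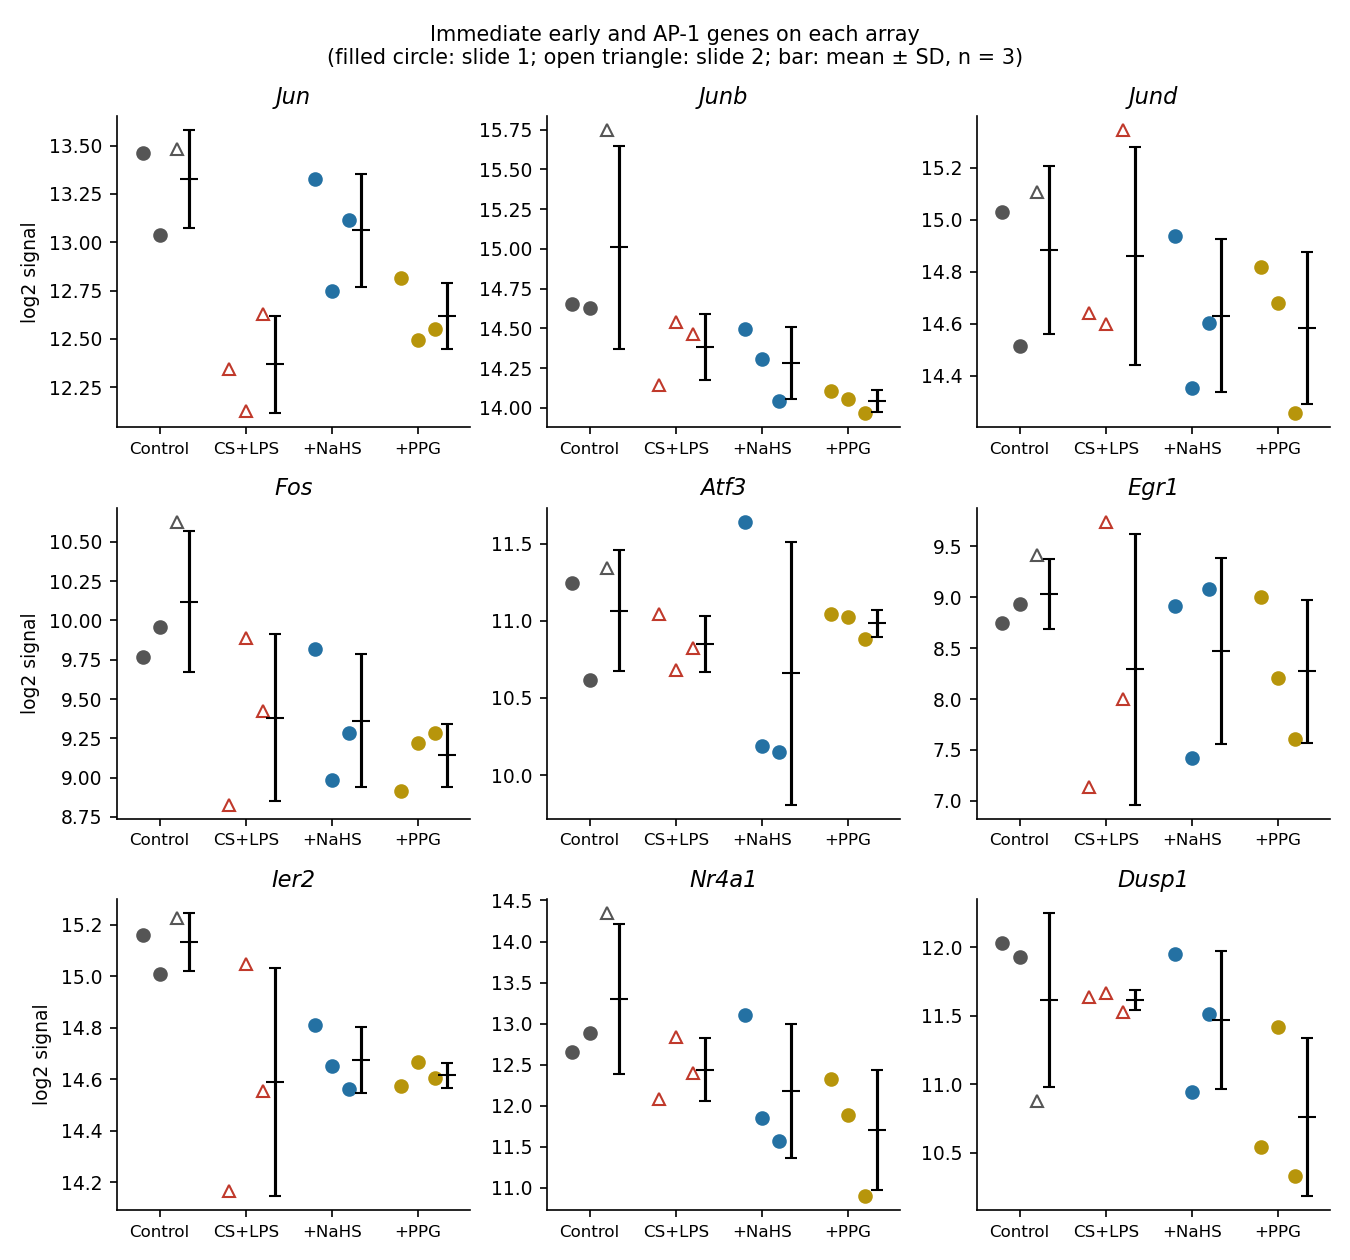
Scaled log2 signal (y axis) of the 9 measured genes on each array, by group (x axis), with filled circles for slide 1, open triangles for slide 2, and mean ± SD (n = 3) as bars. Jun in the 3 CS+LPS lungs lies between 12.13 and 12.63, below all 3 control lungs, while Junb, Fos and Nr4a1 are highest in the control lung of slide 2.

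Jun encodes the founding AP-1 subunit, the target of the Jun N-terminal kinases. Its signal was 13.46, 13.04 and 13.48 in control replicates 1 to 3, and 12.35, 12.13 and 12.63 in CS+LPS. It was 13.33, 12.75 and 13.11 in CS+LPS+NaHS and 12.81, 12.50 and 12.55 in CS+LPS+PPG. Every CS+LPS lung was below every control and every NaHS lung, and every PPG lung was below every control lung. The order of the means was control (13.33 ± 0.25, SD, n = 3), CS+LPS+NaHS (13.06 ± 0.29), CS+LPS+PPG (12.62 ± 0.17) and CS+LPS (12.37 ± 0.25). Jun was 1.94-fold lower in CS+LPS than in control lung (log2 difference -0.96, SE 0.20, adjusted p = 0.0404, limma with Benjamini-Hochberg adjustment). It was the only call among the 9 genes in this comparison, against 2.02% of all 21239 probes tested. Jun in the NaHS and PPG lungs differed from control by log2 differences of -0.26 and -0.71 (adjusted p = 0.491 and 0.0622, limma). The CS+LPS difference was -1.12 with slide as a block, and -1.12 within slide 2, where the only control is replicate 3. The call was lost in 9 of 18 alternatives, namely without any one of Control replicates 1 or 3 or CS+LPS replicates 1, 2 or 3 (adjusted p from 0.0724 to 0.0955), with quantile scaling (0.0514), with no filter (0.0724), with only these 2 groups in the fit (0.244) and by the methods' t-test (0.353). The difference stayed between -1.12 and -0.84 in all 18.

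Junb encodes a Jun family subunit that is a weaker activator than Jun and can hold Jun in check. Its signal was 14.65, 14.63 and 15.74 in the control lungs, and 14.15, 14.54 and 14.47 in CS+LPS. It was 14.50, 14.31 and 14.05 in CS+LPS+NaHS and 14.11, 14.05 and 13.97 in CS+LPS+PPG. All 9 exposed lungs were below the lowest control lung, and Control replicate 3 stood over 1 above the other control lungs. The log2 difference was -0.62 in CS+LPS, -0.73 in CS+LPS+NaHS and -0.97 in CS+LPS+PPG (adjusted p = 0.180, 0.229 and 0.0610, limma). With Control replicate 3 left out these were -0.26, -0.36 and -0.60. Within slide 2 the CS+LPS difference was -1.36, against the 1 control lung on that slide.

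Jund, the Jun family member that is made steadily in resting cells, ranged from 14.51 to 15.11 in control, from 14.60 to 15.34 in CS+LPS, from 14.35 to 14.94 in CS+LPS+NaHS and from 14.25 to 14.82 in CS+LPS+PPG. All 4 groups overlapped. Its differences from control were -0.02, -0.25 and -0.30 in these 3 groups (adjusted p = 0.958, 0.616 and 0.450, limma), with 95% confidence intervals from -0.59 to 0.54, from -0.82 to 0.31 and from -0.86 to 0.26. The 3 differences were 0.09, -0.14 and -0.19 with Control replicate 3 left out.

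Fos, which cannot pair with itself and needs a Jun partner, had signals of 9.77, 9.96 and 10.63 in control and 8.83, 9.89 and 9.43 in CS+LPS. It had 9.82, 8.98 and 9.28 in CS+LPS+NaHS and 8.92, 9.22 and 9.28 in CS+LPS+PPG. The PPG lungs were all below the control lungs, and 1 lung in each of the CS+LPS and NaHS groups reached the control range. Its log2 difference from control was -0.74, -0.76 and -0.98 in CS+LPS alone, with NaHS and with PPG (adjusted p = 0.172, 0.260 and 0.0803, limma). Against the controls of slide 1 alone these were -0.49, -0.50 and -0.72.

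Atf3 encodes a stress-induced bZIP factor that often represses its targets. It was 11.24, 10.61 and 11.34 in control, 11.04, 10.68 and 10.83 in CS+LPS, 11.64, 10.19 and 10.15 in CS+LPS+NaHS, and 11.04, 11.03 and 10.88 in CS+LPS+PPG. All groups overlapped with control, and NaHS replicate 1 held the highest value of all 12 lungs while the other NaHS lungs held the lowest. The differences from control were -0.22, -0.41 and -0.08 (adjusted p = 0.704, 0.553 and 0.895, limma), and they were -0.08, -0.27 and 0.06 against the controls of slide 1.

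Egr1 encodes a zinc finger factor driven by serum response factor. It was the most scattered of the 9 within CS+LPS, with signals of 7.13, 9.74 and 8.00, and the first and second of these were the lowest and the highest of all 12 lungs. Control lungs had 8.74, 8.94 and 9.41, NaHS lungs 8.92, 7.42 and 9.09, and PPG lungs 9.005, 8.21 and 7.60. The groups overlapped throughout. The differences from control were -0.74, -0.56 and -0.76 (SE 0.64, adjusted p = 0.463, 0.661 and 0.445, limma), where the SD within CS+LPS was 1.33. Leaving Control replicate 3 out gave -0.55, -0.37 and -0.57.

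Ier2 encodes a small nuclear protein induced by growth factors. Its control signals lay close together at 15.16, 15.01 and 15.23. They were 14.16, 15.05 and 14.55 in CS+LPS, 14.81, 14.65 and 14.56 in CS+LPS+NaHS, and 14.57, 14.67 and 14.60 in CS+LPS+PPG. All 6 NaHS and PPG lungs were below all control lungs, and CS+LPS replicate 2 reached the control range. The differences were -0.54, -0.46 and -0.52 (adjusted p = 0.129, 0.267 and 0.114, limma), and the last of them was called with normexp background correction (-0.66, adjusted p = 0.0460).

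Nr4a1 encodes Nur77, an orphan nuclear receptor that restrains inflammatory genes in macrophages. Its signals were 12.66, 12.89 and 14.34 in control and 12.08, 12.84 and 12.40 in CS+LPS. They were 13.11, 11.85 and 11.58 in CS+LPS+NaHS and 12.32, 11.89 and 10.90 in CS+LPS+PPG. The PPG lungs were all below the control lungs, and the other exposed groups overlapped with control. It was 3.02-fold lower in CS+LPS+PPG than in control (log2 difference -1.59, SE 0.53, adjusted p = 0.0882, limma), which passed the fold and unadjusted p thresholds of the study's methods and not the adjusted threshold. It was the only one of the 9 genes to pass those thresholds there, against 4.38% of all probes. The difference was -1.07 when Control replicate 3 was left out. In CS+LPS and CS+LPS+NaHS it was -0.86 and -1.12 (adjusted p = 0.313 and 0.306, limma), and -0.33 and -0.59 with that array left out. In these comparisons 0 of the 9 genes passed the fold and p thresholds, against 4.56% and 2.67% of all probes.

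Dusp1 is the 1 phosphatase among the 9 genes. It was 12.03, 11.93 and 10.88 in control, 11.64, 11.67 and 11.53 in CS+LPS, 11.95, 10.94 and 11.51 in CS+LPS+NaHS, and 10.54, 11.42 and 10.33 in CS+LPS+PPG. Control replicate 3, the highest lung for Junb, Fos and Nr4a1, was the lowest control lung for Dusp1 by over 1. The control and CS+LPS means were both 11.61, with a difference whose 95% confidence interval ran from -0.80 to 0.80, and without Control replicate 3 the difference was -0.37. In the NaHS lungs it was at -0.14 (adjusted p = 0.856, limma). The PPG lungs were all below the CS+LPS lungs (-0.85, SE 0.36, adjusted p = 0.450, limma) and overlapped with control (-0.85, adjusted p = 0.151, limma). With the 2 control lungs of slide 1 only, the differences from control were -0.51 in CS+LPS+NaHS and -1.21 in CS+LPS+PPG.

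**Figure D2:**
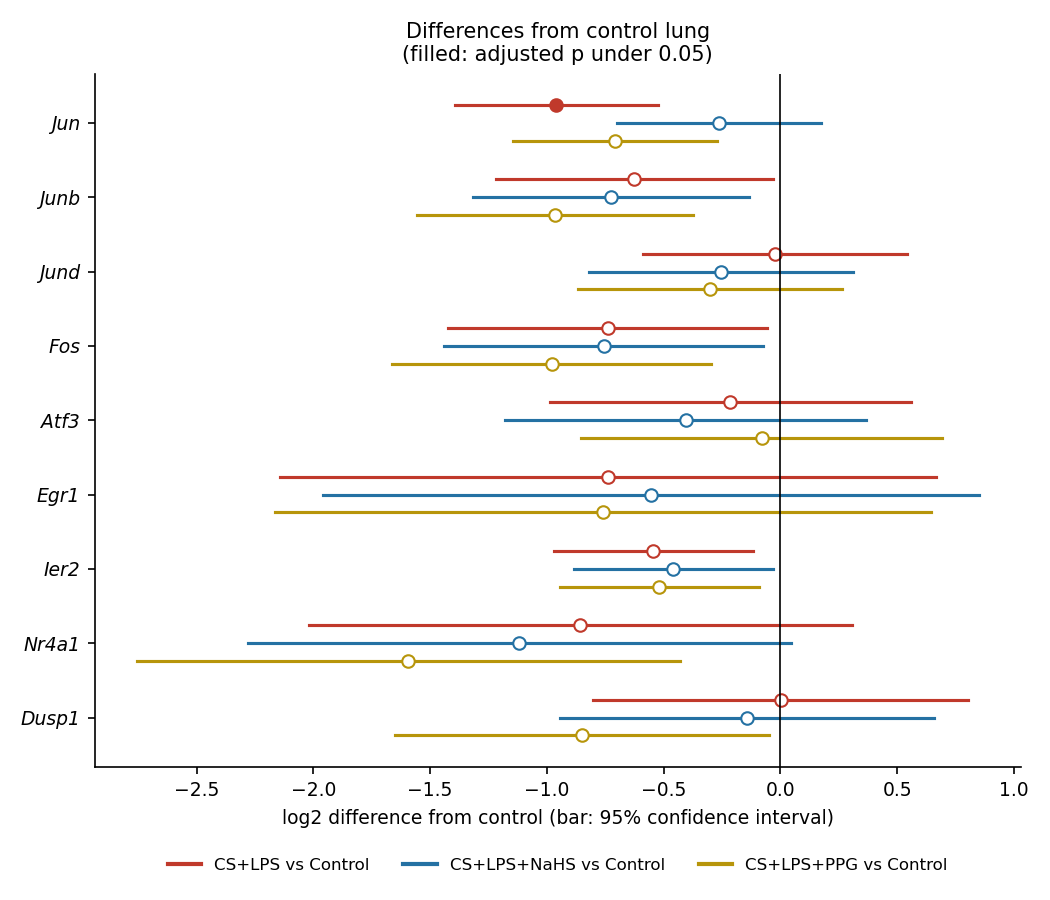
Log2 difference from control (x axis) of each gene (y axis) in lungs of the 3 exposed groups, as points with 95% confidence intervals from limma, filled where the adjusted p is under 0.05. Jun in CS+LPS at -0.96 is the single filled point, and nearly all other points lie at or left of 0.

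Counted as a group, 8 of the 9 genes were lower than control in CS+LPS, with a median log2 difference of -0.62 where all probes had -0.04, and 53.5% of all probes were lower. In CS+LPS+NaHS 9 of 9 were lower (median -0.46, all probes 0.00, 49.6% of probes lower), and in CS+LPS+PPG 9 of 9 (median -0.76, all probes -0.01, 50.8% lower). These 3 comparisons share the same control lungs. At adjusted p, 1, 0 and 0 of the 9 genes were called, where 2.02%, 0.0989% and 4.64% of all probes were. At an unadjusted limma p under 0.05 the counts were 4, 3 and 6 of 9, against 25.2%, 17.1% and 29.3% of all probes. By the methods' t-test with Benjamini-Hochberg adjustment 0 genes were called in each. The arrays of the 2 groups did not overlap for 2, 2 and 5 of the 9 genes, against 25.2%, 24.8% and 33.2% of all probes. Without Control replicate 3, 8, 9 and 8 of the 9 genes were lower, with medians of -0.37, -0.37 and -0.60, and 0 were called in any of the 3.

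The signal of heart muscle and fat markers varied between these lungs too, also among the control lungs. Heart muscle markers, 4 of 5 detected and Nppa not, summed to 7033, 6268 and 86422 in control replicates 1 to 3, and to between 12556 and 50400 on the CS+LPS arrays. The sum lay between 10194 and 52945 with NaHS and between 38716 and 67092 with PPG. In each comparison with control, 0 of the 4 had an unadjusted limma p under 0.05 (25.2%, 17.1% and 29.3% of all probes). Fat markers, 3 of 5 detected and Plin1 and Lep not, summed to between 3491 and 9679 on the control arrays, the highest being Control replicate 3, and between 4065 and 6198 on the CS+LPS arrays. They lay between 4544 and 7221 with NaHS and between 8072 and 11197 with PPG. The part of heart muscle and fat in the values of the 9 genes was not tested.

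The question of whether supplying hydrogen sulfide or blocking its synthesis moved these genes in exposed lung was open to 3 comparisons. Against CS+LPS, Jun was 1.62-fold higher in CS+LPS+NaHS, and all NaHS lungs were above all CS+LPS lungs (log2 difference 0.69, SE 0.20, adjusted p = 0.195, limma). The other 8 genes lay between -0.26 and 0.18, and the interval for Fos, for instance, ran from -0.70 to 0.67. In CS+LPS+PPG against CS+LPS, Dusp1 had the difference furthest from 0, as given above, and Junb was lower by log2 difference -0.34 (adjusted p = 0.693, limma) with no overlap between the groups. The groups did not overlap for 1 of the 9 genes with NaHS and 2 with PPG, against 20.5% and 19.1% of all probes. At adjusted p 0 of the 9 genes were called in both comparisons, against 0.593% and 0.523% of all probes, and 0 passed the fold and p thresholds, against 1.7% and 2.05%. The unadjusted limma p was under 0.05 for 1 gene in each, Jun and Dusp1, against 9.67% and 10.5% of all probes, and the methods' t-test with adjustment called 0. With slide as a block, which rests on Control replicate 3, Junb in CS+LPS+NaHS was at 1.00 (adjusted p = 0.0223, limma) and Dusp1 in CS+LPS+PPG at -1.95 (adjusted p = 0.0292, limma), while the signs of 5 genes in each comparison turned. In that fit 23% and 22.6% of all probes were called.

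Between CS+LPS+NaHS and CS+LPS+PPG, which share slide 1, 8 of the 9 genes were higher with NaHS, with a median of 0.22 (all probes 0.01). The widest difference was that of Dusp1 (0.71, SE 0.36, adjusted p = 0.595, limma), and Jun had 0.44 (adjusted p = 0.571, limma). Jun was the 1 gene with an unadjusted limma p under 0.05, against 8.74% of all probes. The NaHS and PPG lungs overlapped for all 9 genes, whereas 25.2% of all probes had no overlap. At adjusted p 0 of the 9 genes were called by limma or by the methods' t-test, as were 0% of all probes by limma, and 0 passed the fold and p thresholds, against 0.523% of probes. Without NaHS replicate 1, the differences of Jund, Fos, Egr1 and Ier2 turned below 0.

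**Figure D3:**
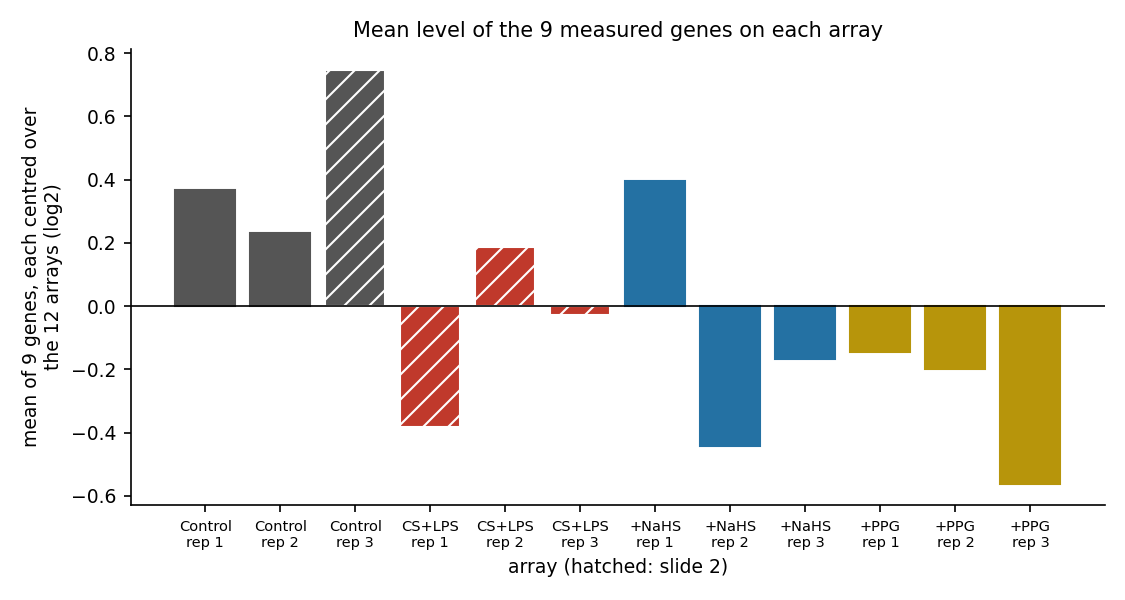
Mean of the 9 genes on each array, each gene first centred on its mean over the 12 arrays (y axis, log2), with arrays on the x axis in the colours of their groups and hatching for slide 2. The control lungs lie between 0.23 and 0.75, whereas NaHS replicate 1 is at 0.40 and the other NaHS lungs at -0.44 and -0.17.

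Rats of the same group differed from each other in these genes. After each gene was centred over the 12 arrays, the mean of the 9 genes was 0.37, 0.23 and 0.75 in the control lungs and -0.38, 0.19 and -0.03 in CS+LPS. It was 0.40, -0.44 and -0.17 in CS+LPS+NaHS and -0.15, -0.20 and -0.56 in CS+LPS+PPG. NaHS replicate 1 was above the 12-array median in 9 of 9 genes, whereas NaHS replicate 2 and PPG replicate 3 were above it in 0 of 9. The control lungs were all above the CS+LPS and PPG lungs in this mean, and the NaHS lungs spanned both.

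**Figure D4:**
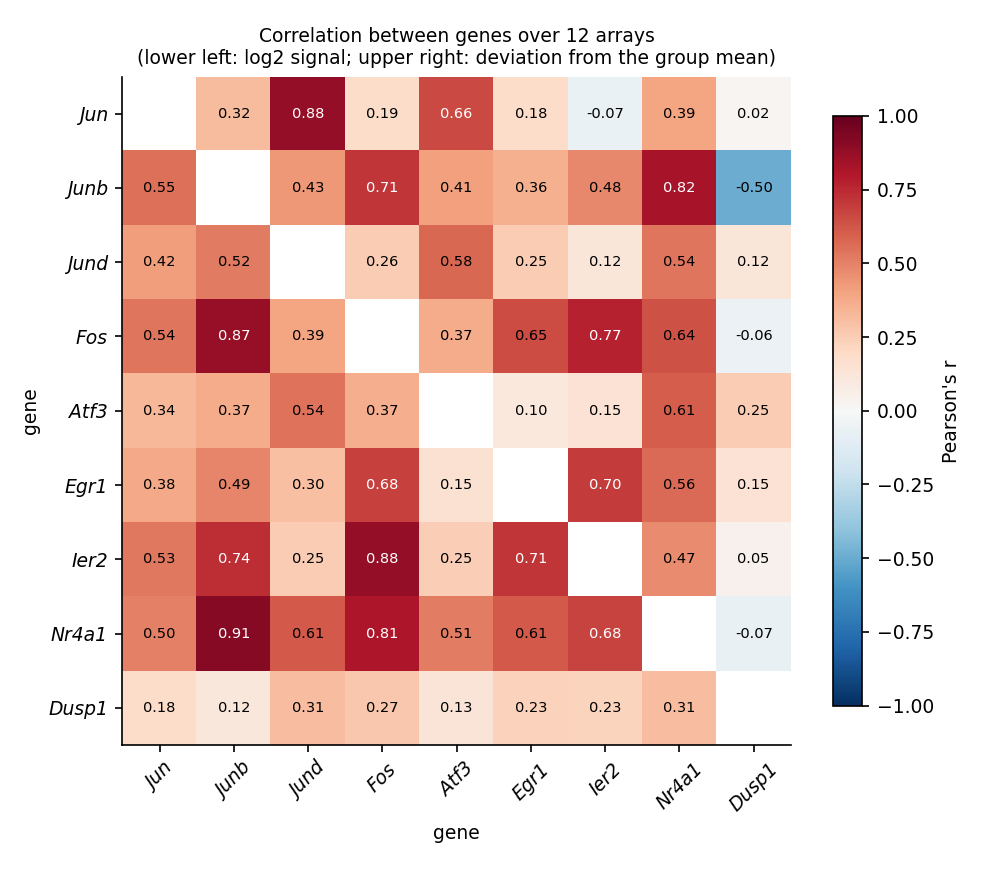
Pearson's r between pairs of genes over the 12 arrays, from the log2 signals (lower left) and from deviations from each group's mean (upper right), as a colour scale from -1 to 1. Junb with Nr4a1 has 0.909 and 0.825, and Junb with Dusp1 has 0.115 and -0.498, the latter pair being 0.714 over the log2 signals without Control replicate 3.

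Over the 12 arrays, which share their scaling and fall in 4 groups, Junb and Nr4a1 were the most alike pair (Pearson's r 0.909, 0.825 after each group's mean was removed, and 0.845 without Control replicate 3). Fos followed Ier2 (0.876) and Junb (0.872). Jun and Jund had 0.419 over all arrays and 0.88 within groups, and Junb and Dusp1 0.115 over all arrays and 0.714 without Control replicate 3. Against the mean of the other 8 genes, r was 0.875 for Nr4a1 and 0.86 for Fos, and 0.822 and 0.782 without Control replicate 3. For Dusp1 it was 0.288, and 0.0188 within groups, where without Control replicate 3 it was 0.673. The lowest value without that array was that of Atf3 (0.307). Among 10222 other genes detected on all arrays, those whose pattern was most like the mean of the 9 were Dusp6 (r 0.919), a phosphatase of the ERK kinases, Btg2 (0.89), an antiproliferative factor, and Spry4 (0.885), a feedback inhibitor of growth factor signalling. They were followed by Sik1 (0.879), Cox11 (0.873), Clock (0.868), Cebpb (0.86) and Ppp1r15a (0.859). Within groups their r was 0.704 to 0.941.

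Of 30 other immediate early genes listed by name, 28 were measured. Lower than control were 24, 23 and 26 of the 28 in CS+LPS alone, with NaHS and with PPG (53.5%, 49.6% and 50.8% of all probes). Their medians were -0.38, -0.30 and -0.44. In CS+LPS+PPG 3 were called and lower, against 4.64% of all probes called: Nr4a2, a nuclear receptor of the Nr4a1 family, at -1.49, Zfp36, whose product destabilises cytokine mRNAs, at -1.03, and Btg2 at -0.76 (adjusted p = 0.0438, 0.0484 and 0.0406, limma). Nr4a2 ranged from 11.72 to 13.06 in control and from 10.46 to 11.00 in the PPG lungs. In the other comparisons with control 0 of the 28 were called by limma, with 8 and 3 at an unadjusted p under 0.05 (25.2% and 17.1% of all probes), and the largest differences were those of Nr4a2 in CS+LPS (-1.04, adjusted p = 0.119) and Ptgs2, the inducible cyclooxygenase, in CS+LPS+NaHS (1.25, adjusted p = 0.375). These were -0.60 and 2.13 without Control replicate 3. Ptgs2 was well above background on 6 of 12 arrays, with group means of 4.38 in control, 4.37 in CS+LPS, 5.63 with NaHS and 4.29 with PPG. With normexp background correction its difference from control in CS+LPS+NaHS was 0.33. The 3 calls in CS+LPS+PPG were each lost without Control replicate 3 (adjusted p = 0.0573, 0.0868 and 0.0657), and also without Control replicate 1 or any one PPG array (0.0546 to 0.159 over all of these).

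Against CS+LPS, 0 of the 28 were called in either treated group, and Ptgs2 (1.26, adjusted p = 0.658, limma) and Zfp36 (-0.64, adjusted p = 0.414, limma) had the largest differences in CS+LPS+NaHS and CS+LPS+PPG, with 3 and 5 genes at an unadjusted p under 0.05 (9.67% and 10.5% of all probes). That of Ptgs2 was 0.35 with normexp background correction. Without Control replicate 3 in the shared spread, Gadd45b, a stress-induced regulator of MAP kinase signalling, was called in CS+LPS+NaHS (0.77, adjusted p = 0.0373, limma).

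The other AP-1 family genes split, with 8 of 10 measured. Batf and Batf3, bZIP partners of Jun proteins in lymphocytes and dendritic cells, were each called and higher in at least 1 exposed group, and Jdp2, a repressor that binds Jun, was called and lower. Batf had 8.77, 9.02 and 8.31 in control, 9.52, 9.61 and 9.47 in CS+LPS, 9.35, 9.36 and 9.34 in CS+LPS+NaHS, and 9.71, 9.42 and 9.68 in CS+LPS+PPG. All 9 exposed lungs were above all control lungs. The difference was 0.83 in CS+LPS and 0.90 in CS+LPS+PPG (adjusted p = 0.0395 and 0.0264, limma), and 0.65 in CS+LPS+NaHS (adjusted p = 0.141). Both calls were kept without Control replicate 3, at 0.64 and 0.71 (adjusted p = 0.0452 and 0.0272), and both were lost without any one array of the exposed group, as was that of CS+LPS without Control replicate 1 (adjusted p from 0.0642 to 0.119).

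Jdp2 was called and lower in CS+LPS (-0.76, adjusted p = 0.0321, limma). In CS+LPS+PPG Batf3 was at 1.23, Fosl2, a Fos family gene, at -0.76 and Atf4, a factor of the amino acid and integrated stress response, at -0.65 (adjusted p = 0.0369, 0.0361 and 0.0320, limma). In CS+LPS+PPG 5 of the 8 family genes were called, against 4.64% of all probes, 2 higher and 3 lower, the third of the lower ones being Jdp2 at -0.58, which was outside the 4 largest and is named after its value was seen. In CS+LPS 2 of the 8 were called, against 2.02% of all probes. Leaving out Control replicate 3 left 2 calls in CS+LPS+PPG (Batf and Atf4) and 1 in CS+LPS (Batf). Jdp2 in CS+LPS was also lost without Control replicate 1 or any one CS+LPS array (adjusted p from 0.0514 to 0.121), Atf4 without Control replicate 1, and Batf3, Fosl2 and Atf4 without any one PPG array (adjusted p up to 0.123). In CS+LPS+NaHS 0 were called by limma, with 4 of 8 at an unadjusted p under 0.05 (17.1% of all probes). Against CS+LPS, Maff, a small Maf gene, had the largest difference in both treated groups (0.62 and 0.84, adjusted p = 0.437 and 0.251, limma), and between the treated groups it was Batf3 (-0.66, adjusted p = 0.563, limma).

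T and B cell markers, 4 of 6 of which were detected, had a summed signal between 2938 and 5660 on the control arrays and between 4746 and 7815 on the CS+LPS arrays. The sum lay between 5356 and 6629 with NaHS and between 6609 and 7456 with PPG. Their part in the Batf and Batf3 values was not tested.

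**Figure D5:**
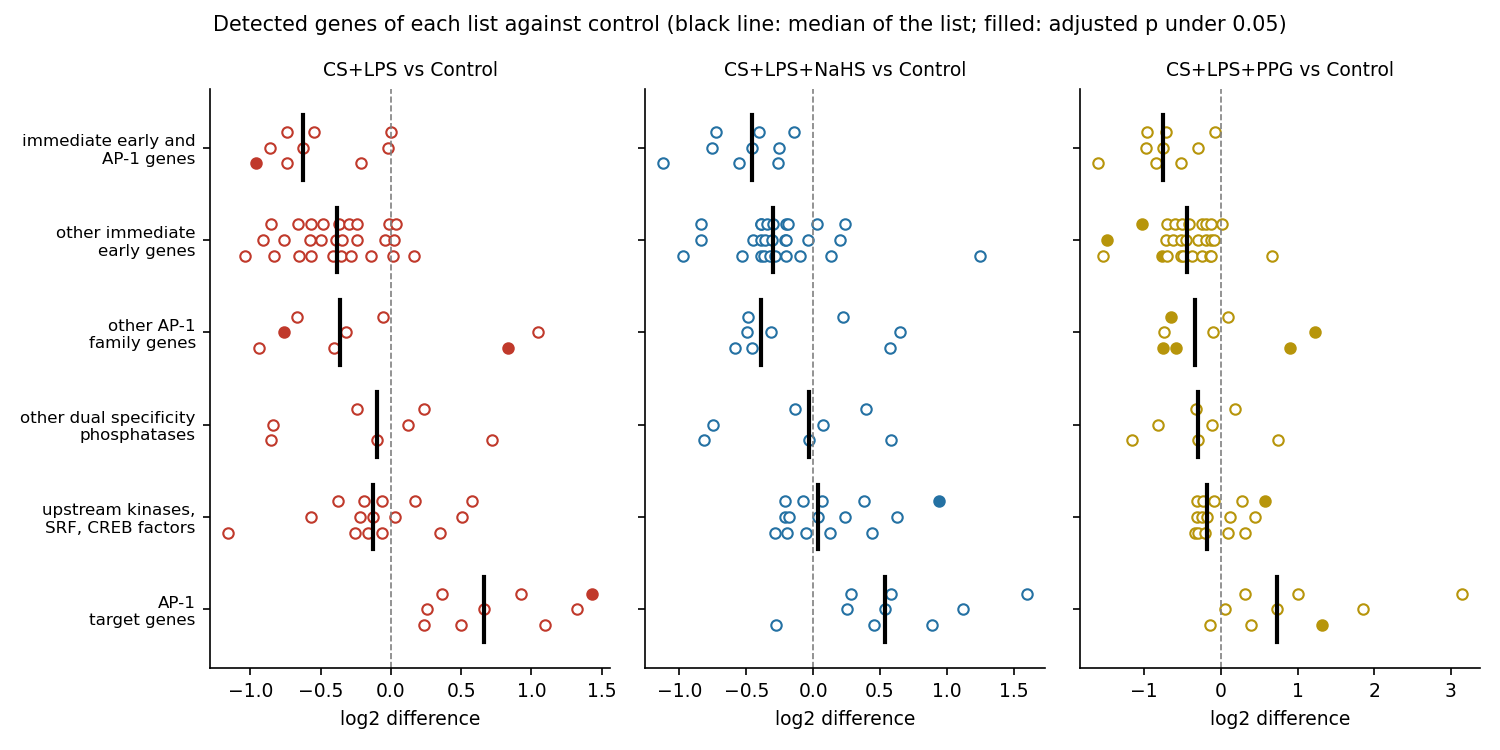
Log2 difference from control (x axis) of every detected gene in 6 lists (y axis), in a panel for each exposed group, with the median of each list as a black line and filled points for an adjusted p under 0.05. The 9 immediate early and AP-1 genes have medians of -0.62, -0.46 and -0.76, and the AP-1 target genes 0.66, 0.53 and 0.73.

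Genes known as AP-1 targets lay on the other side of 0. Of 12 listed 9 were measured, while Mmp3, Mmp13 and Il6 were not well above background. In CS+LPS alone, with NaHS and with PPG, 9, 8 and 8 of the 9 were higher than control (medians 0.66, 0.53 and 0.73). Over all probes 53.5%, 49.6% and 50.8% were lower, with medians of -0.04, 0.00 and -0.01. Mmp12, the macrophage elastase, was the 1 call, at 1.43 in CS+LPS and 1.32 in CS+LPS+PPG (adjusted p = 0.0455 and 0.0433, limma), against 2.02% and 4.64% of all probes. Spp1, which encodes osteopontin, had the largest difference in CS+LPS+NaHS (1.60, adjusted p = 0.436, limma). Mmp12 was 6.79, 6.13 and 6.25 in control, 8.16, 7.73 and 7.57 in CS+LPS and 7.72, 7.18 and 8.23 in CS+LPS+PPG. Neither group overlapped with control, as was so for 25.2% and 33.2% of all probes. Both calls were lost without Control replicate 3 (adjusted p = 0.0855 and 0.0767), without Control replicate 2 and without any one array of the exposed group, and that of CS+LPS+PPG also without Control replicate 1 (adjusted p from 0.0522 to 0.14). Macrophage markers, 3 of 5 of which were detected, had a summed signal between 4146 and 7726 on the control arrays. Their sum lay between 12979 and 19928 in CS+LPS, between 13104 and 16956 in CS+LPS+NaHS and between 11825 and 15887 in CS+LPS+PPG, with no overlap with control. Neutrophil markers, 6 of 7 detected, summed to between 7307 and 18701 on the control arrays and between 15494 and 32598 on the CS+LPS arrays. With NaHS they lay between 16082 and 32226, and with PPG between 24663 and 34913. Endothelium markers, 4 of 5 detected and Vwf not, summed to between 96077 and 106028 in control and between 86037 and 101233 in CS+LPS. Their sum lay between 88930 and 101783 with NaHS and between 74996.5 and 99597 with PPG. Against control, 3, 2 and 2 of the 4 were lower. In CS+LPS and CS+LPS+PPG 1 of the 4 was called and lower, against 2.02% and 4.64% of all probes called. The part of macrophages, neutrophils and endothelium in the AP-1 target values, and in those of the immediate early genes, was not tested. Housekeeping genes, 6 of 6 detected, summed to between 593102 and 647250 in control and between 536390 and 587987 in CS+LPS, and to between 532932 and 616850 with NaHS and between 625630 and 709632 with PPG. Taken singly, 4, 3 and 5 of the 6 were higher than control in CS+LPS alone, with NaHS and with PPG. Their median log2 differences were 0.23, 0.06 and 0.26.

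The kinases and factors upstream of these genes, 15 of 18 measured, had medians of -0.13, 0.04 and -0.18 against control. Map2k6, a kinase that activates p38, was the 1 call, with 0.94 in CS+LPS+NaHS and 0.57 in CS+LPS+PPG (adjusted p = 0.0360 and 0.0369, limma). Of all probes, 0.0989% and 4.64% were called in these comparisons. Map2k6 was 6.56, 6.87 and 6.69 in control, 7.62, 7.63 and 7.70 in CS+LPS+NaHS and 7.40, 7.27 and 7.19 in CS+LPS+PPG. Neither treated group overlapped with control, as was so for 24.8% and 33.2% of all probes. Both calls were kept without Control replicate 3 and lost without Control replicate 1 or any one array of the treated group (adjusted p from 0.0709 to 0.183). Map2k7, a kinase that activates the Jun N-terminal kinases, was 5.60, 5.43 and 5.54 in CS+LPS and from 5.98 to 7.51 in all other lungs, and it had the largest difference in 3 comparisons. It was at -1.16 in CS+LPS against control, and at 1.22 in CS+LPS+NaHS and 1.24 in CS+LPS+PPG against CS+LPS (adjusted p = 0.0936, 0.191 and 0.196, limma). The first was -0.74 without Control replicate 3. Without Control replicate 3 in the shared spread the latter pair were called (adjusted p = 0.0368 and 0.0393, limma). With normexp background correction the 3 differences of Map2k7 were smaller, at -0.48, 0.53 and 0.56. The 3 CS+LPS arrays lay on slide 2, where Control replicate 3 had 7.51.

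Of 9 other dual specificity phosphatases listed, 7 were measured and 0 were called by limma in any comparison, with 2, 2 and 3 of the 7 at an unadjusted p under 0.05 against control, where 25.2%, 17.1% and 29.3% of all probes were. Dusp8 had the largest difference from control in each exposed group, at -0.85, -0.81 and -1.15 (adjusted p = 0.202, 0.310 and 0.0922, limma).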

How the data were processed

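Total RNA of the left upper lobe of 12 rat lungs (4 groups of 3) was labelled with Cy3 and hybridised on Agilent 1-colour arrays. RNA with an integrity number above a minimum was used, per the methods. Per the file headers, the authors read the arrays with Feature Extraction 10.7.3.1, and the deposited gProcessedSignal is a background-corrected spot intensity with no scaling between arrays. The deposited lists of changed probes hold the authors' own fold changes and p-values and were not used.

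Outlier spots were left out, log2 intensities were centred on the 75th percentile of each array, and spots of 1 probe were averaged. Probes were named through RefSeq accessions, which gave a symbol to 17514 of 30367 probes, and the most intense detected probe stood for a gene. The test took in the 21239 probes that all 3 arrays of some group read as well above background. One limma fit (limma 3.58.1, R 4.3.3) over all 12 arrays gave 6 comparisons, with Benjamini-Hochberg adjustment over all probes and a threshold of 0.05. The thresholds of the study's methods, fold 2 and unadjusted p under 0.05, were counted too, with the p taken from limma unless the t-test is named. An exact permutation test of 3 against 3 arrays cannot go below p = 0.1 and was not run. The PPG dose was 37.5 mg/kg.

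The scripts were tested on simulated data. The 10 genes and the other lists were chosen with earlier results of these data known, so no list count is independent support. The text names, in each list and comparison, up to 4 called genes or, where none was called, the gene with the largest difference. Gadd45b was named after its value was seen. Cell type markers are given as lists. Lists for blood, skeletal muscle and pancreas were also made and are not reported here. Alternatives were quantile scaling, the 75th percentile over probes detected on all arrays, normexp correction (offset 50, on median signals), outlier spots kept, no filter or a stricter one, slide as a block or within slides, the replicate number as a block, the compared groups only, the methods' t-test, the mean of a gene's probes, and each array left out. Removing Control replicate 3 where it enters only through the spread, and from the list counts and correlations, was chosen after seeing the data. Replicate numbers did not pair the arrays.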

Additional observations from a re-analysis of the deposited data

How the results depend on the processing

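Over 18 alternatives at most, Jun in CS+LPS against control stayed below 0 in each. Several alternatives, such as a changed filter, the compared groups only and the t-test, reuse the same scaled values. The direction of a difference was fixed in advance there, and only its p could move. Of all results, 1410 single-gene values kept direction and side of the threshold, 136 lost a call, 23 gained one and 62 changed sign, and the cause of none was tested. Each of the 13 calls named among the other lists was lost with no filter, with the replicate block, with only the groups compared, with the methods' t-test and without any one array of the exposed group. The alternatives were not run for Jdp2 in CS+LPS+PPG, other than without Control replicate 3.

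In CS+LPS against control, 0 genes were called at adjusted p with quantile scaling, no filter, only the groups compared and the methods' t-test, 4 with slide as a block (41.6% of all probes) and 3 within slide 2 (18.4%). The fold and p count there was 1 with quantile scaling (4.34% of all probes) and 4 with slide as a block (22.7%). In CS+LPS+PPG against control, 3 were called with normexp correction (6.38% of all probes) and 1 with the mean of a gene's probes (8.07% of 11146 genes). Each of the 9 has 1 probe, so that mean left its values unchanged and altered only the set tested. There 2, 2 and 0 passed fold and p with quantile scaling, normexp and the t-test, against 4.74%, 1.95% and 2.34% of all probes. With slide as a block, 1 gene was called and 2 passed fold and p in CS+LPS+NaHS against CS+LPS (23% and 19.9% of all probes), and 1 and 1 in CS+LPS+PPG against CS+LPS (22.6% and 19.4%).

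Dusp1 in CS+LPS against control was -0.019 with quantile scaling, -0.037 with the other percentile, -0.028 with normexp and -0.0015 with outlier spots kept. Ier2 in CS+LPS+PPG against CS+LPS was -0.021 with quantile scaling and -0.029 with normexp, and Fos in CS+LPS+NaHS against CS+LPS was 0.015 with the other percentile. Atf3 in CS+LPS+PPG against control was 0.056 with slide as a block and 0.056 within slide 1. With slide as a block, CS+LPS+NaHS against CS+LPS gave Junb 1.00, Jund 0.11, Fos 0.74, Atf3 0.22, Nr4a1 1.31 and Dusp5 -0.016 (0.17 otherwise). CS+LPS+PPG against CS+LPS then gave Junb 0.76, Jund 0.060, Fos 0.52, Egr1 0.55, Nr4a1 0.83, Zfp36 0.091 and Dusp8 0.30 (-0.30 otherwise).

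With 1 array left out in turn, the CS+LPS count against control ran from 0 to 1 at adjusted p and from 0 to 1 by fold and p. Over all probes these shares ran from 0.137% to 6.1% and from 2.88% to 8.43%. The CS+LPS+NaHS count by fold and p ran from 0 to 1 (1.94% to 5.78% of all probes). The CS+LPS+PPG counts ran from 0 to 2 and from 1 to 3 (0.0565% to 7.84% and 3.11% to 7.54% of all probes). The 2 and 3 came without Control replicate 2, where 7.84% and 7.54% of all probes passed these thresholds. By fold and p the count ran from 0 to 1 in CS+LPS+PPG against CS+LPS and in CS+LPS+NaHS against CS+LPS+PPG. Over all probes these shares ran from 1.81% to 2.48% and from 0.556% to 0.758%. Against control, Jund in CS+LPS ran from -0.27 to 0.11, Dusp1 in CS+LPS from -0.37 to 0.21, Dusp1 in CS+LPS+NaHS from -0.51 to 0.12 and Atf3 in CS+LPS+PPG from -0.31 to 0.056. In CS+LPS+NaHS against CS+LPS, Junb ran from -0.22 to 0.018, Jund from -0.38 to 0.011, Fos from -0.29 to 0.23, Atf3 from -0.68 to 0.066, Egr1 from -0.40 to 0.91, Ier2 from -0.13 to 0.32, Nr4a1 from -0.73 to 0.040, Dusp1 from -0.38 to 0.12 and Dusp5 from -0.017 to 0.47. In CS+LPS+PPG against CS+LPS, Fos ran from -0.52 to 0.014, Egr1 from -0.60 to 0.71 and Ier2 from -0.19 to 0.26. In CS+LPS+NaHS against CS+LPS+PPG, Jund ran from -0.12 to 0.19, Fos from -0.0072 to 0.41, Egr1 from -0.13 to 0.73 and Ier2 from -0.0093 to 0.12.

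Arrays with the same replicate number did not deviate together (correlations from -0.309 to 0.139, 2 of 18 over 0.1, and 1 of 12 arrays most like its own number). With the replicate number as a block, Jun in CS+LPS against control stayed called (-0.96, adjusted p = 0.0472, limma) and no other of the 9 genes was called, while calls over all probes fell to 79, 2 and 32 in the 3 comparisons with control.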
